A study of Mus musculus with 12 samples.

Results

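The interferon-stimulated antiviral genes described here are 37 mouse genes that encode antiviral effector proteins, sensors of viral RNA and transducers of the interferon signal. They were found by gene symbol in the deposited expression table of 56748 genes, and all 37 were present. The RNA came from kidneys of male mice aged 8 to 12 weeks, in 4 groups of 3 libraries: wild type after sham surgery (WT sham), wild type after ischemia/reperfusion (WT IR), and a Krt20 knockout limited to renal proximal tubular cells after sham surgery (cKO sham) or after ischemia/reperfusion (cKO IR). IR was 30 min of bilateral clamping followed by 24 h of reperfusion, and sham mice underwent the operation with no clamp placed. Krt20 encodes keratin 20, an intermediate filament protein that injured tubule cells switch on. The labels do not name the Cre driver or the strain, and do not say that libraries of a group came from separate animals, so every p-value measures the spread between these libraries only.

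Interferons bind receptors on the cell surface, and Janus kinases there phosphorylate transcription factors of the STAT family. A complex that includes STAT2 and IRF9 binds the interferon-stimulated response element (ISRE) in promoters of antiviral genes, whereas interferon-gamma acts mainly through a different element, GAS. The products recognise viral RNA, block its translation, cut it or hold virus particles at the membrane, and several of them (STAT2, IRF9, IRF7) are themselves parts of the signalling chain. Kidney tubule cells, endothelium and resident macrophages can all mount such a response.

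The libraries held 13187531 to 15962303 reads, recovered from the deposited FPKM values (fragments scaled to the length of the gene model and to library size, the authors' unit). Krt20, the targeted gene, was at 0.0384, 0 and 0.157 FPKM in WT sham 1 to 3 and at 0.0343, 0 and 0 FPKM in the corresponding cKO libraries, so sham libraries do not check the genotype labels. After IR it was at 84, 64.9 and 59.9 FPKM in WT and 28.2, 35.6 and 47 FPKM in cKO, groups that did not overlap but were not called different (log2 difference ± SE -0.91 ± 0.17, adjusted p = 0.132; called means an adjusted p under 0.05). Proximal tubule markers were abundant, with sums of 22657 to 24694 FPKM over WT sham and 16864 to 24372 FPKM over cKO sham libraries. A single gene of the 7 reached 22230 FPKM in a WT sham and 22240 FPKM in a cKO sham library, most of the sum there. The protocol field speaks of retinas where the tissue field gives kidney, and 5 retina markers summed to at most 5.45 FPKM in a library. In bulk RNA, fewer cells of a type and less RNA per cell cannot be told apart.

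A single library, WT sham 1, stood apart in these genes and is therefore treated first. Of the 36 members that passed the expression filter (an average of 1 FPKM or more across all 12 libraries), 29 were more than 2 times as high in WT sham 1 as in both other WT sham libraries, against 1.06% of all 12868 genes tested. WT sham 2 and WT sham 3 had 0 such members each. The median member level was 9.14 FPKM in WT sham 1, 2.84 in WT sham 2 and 3.0 in WT sham 3, so WT sham was not uniform for this gene set. In WT IR the spread had the other form: WT IR 2 was under 0.5 times both other WT IR libraries in 14 of 36 members, against 2.81% of all genes. Median member levels were 6.95, 2.95 and 5.42 FPKM in WT IR, 16.3, 19.1 and 20.9 FPKM in cKO sham, and 1.90, 2.46 and 3.28 FPKM in cKO IR. Counts over the members that involve WT sham are given below with and without WT sham 1. That library was singled out by its levels in these same members. In all 37 it was at least 1.34 times the mean of WT sham 2 and 3. Leaving it out therefore raises the member differences from WT sham by construction. Calls made without it describe the weight of this library and are not separate support.

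**Figure D1:**
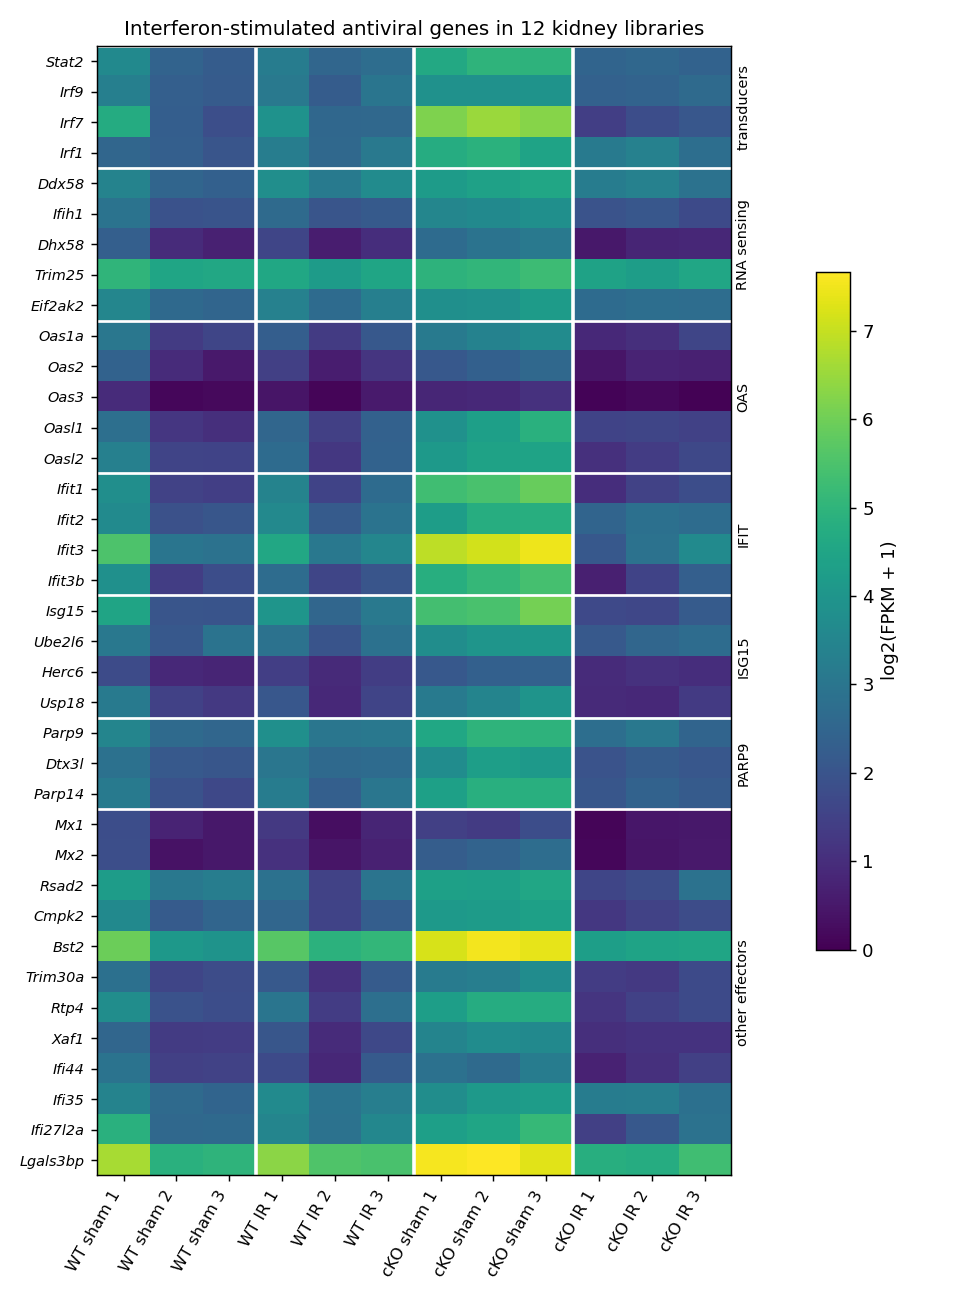
Level of the 37 antiviral genes (rows, grouped by role) in the 12 libraries (columns, grouped by genotype and surgery), as log2(FPKM + 1) from dark (0) to light (highest). The 3 cKO sham columns are the lightest, with medians of 16.3 to 20.9 FPKM, and WT sham 1, at 9.14 FPKM, is lighter than WT sham 2 and 3.

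In sham kidneys, the antiviral genes were higher in cKO than in WT, across every functional class. Of the 36 tested members 14 rose and 0 fell in cKO sham against WT sham, where 0.847% of all tested genes rose and 0.256% fell (limma on log2(FPKM + 1), Benjamini-Hochberg adjusted p under 0.05). The 14 were Stat2, Irf7, Irf1, Ddx58, Ifih1, Oasl1, Ifit1, Ifit3, Herc6, Parp9, Dtx3l, Parp14, Bst2 and Xaf1, with log2 differences from 1.14 for Herc6 to 3.39 for Irf7. All 36 differences were positive, with a median of 1.60 against 0.00 over all tested genes, and 34 had an unadjusted p under 0.05. The 36 include Mx1 and Mx2, which reached the filter only through their cKO sham levels and were not called here. In 30 of the 36 the lowest cKO sham library was above the highest WT sham library, against 13% of all genes. The same 30 members had all 3 cKO sham libraries above each of the other 9 libraries of the series, against 3.27% of all genes.

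The number of calls depended on single libraries. Without WT sham 1, 31 of 35 tested members rose in cKO sham, the 14 among them, against 1.01% of all genes, with differences from 1.40 (Eif2ak2) to 4.27 (Irf7), and the median over the 35 was 2.08. Without WT sham 2 the count was 3 (0.335% of all genes rose), and without WT sham 3 it was 5 (0.428%). Without cKO sham 1, 2 or 3 it was 8 (0.591%), 3 (0.319%) or 4 (0.389%), so the calls among all genes fell as well. Without WT IR 2, a library that enters only the shared estimate of spread and the expression filter, it was 22 (1.12%). All member differences stayed positive in these fits. Mx1 fell under the filter once WT sham 1 was left out, and Trim25, Ube2l6, Rsad2 and Ifi44 were the 4 tested members not called without it.

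In cKO kidneys the antiviral genes were lower after IR than after sham surgery. All 36 tested members fell in cKO IR against cKO sham, where 23.1% of all genes fell and 27.8% rose, and 0 members rose. Mx1 and Mx2 reached the average of the filter only through their cKO sham levels, so the filter favoured their fall. With no filter all 37 members were called lower, against 10.4% of all genes. Log2 differences ran from -4.55 for Irf7 to -0.68 for Trim25, with a median of -2.21 against 0.02 over all genes. In all 36 the highest cKO IR library lay below the lowest cKO sham library, against 27.8% of all genes. Over the members, cKO sham means were between 1.63 times (Trim25) and 32.1 times (Irf7) the cKO IR means. Of these calls 35 held under each alternative run; the exception was Mx1, with an adjusted p of 0.0506 without cKO IR 1. Markers of some other cells fell in the same comparison: 6 of 7 proximal tubule markers (median -1.70, sums of 16864 to 24372 FPKM in cKO sham and 8789 to 11400 in cKO IR, where 1 gene reached 10795) and all 4 markers of the thick ascending limb and distal tubule (median -2.01). In WT IR against WT sham, 6 of 7 and 3 of 4 of these markers fell (medians -1.15 and -1.73). Other lists did not fall as a whole in cKO IR against cKO sham. There 2 of 4 collecting duct, 1 of 3 podocyte, 1 of 5 endothelium and 1 of 4 stroma markers fell. Of 9 tested macrophage and monocyte markers 2 rose and 1 fell, and all 4 tested neutrophil markers rose (median 1.67). The part of these markers in the fall of the antiviral genes was not tested. The cKO sham libraries enter both this comparison and the one with WT sham, so the values of these comparisons are not independent of each other.

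In WT kidneys 2 of the 36 tested members rose with IR and 0 fell. Irf1 rose (3.96 ± 0.831 FPKM in WT sham, 7.03 ± 1.75 FPKM in WT IR, SD, n = 3; log2 difference 0.69 ± 0.20, adjusted p = 0.02), and so did Ddx58 (6.2 ± 3.14 to 10.8 ± 2.72 FPKM, SD, n = 3; 0.77 ± 0.27, adjusted p = 0.0403). Of the other 34, 1 (Rsad2) had an unadjusted p under 0.05 and none was called by limma, and the median difference was -0.03 against 0.01 over all genes, of which 22.6% rose and 19.5% fell. Without WT sham 1 the count of members that rose was 10 of 35, against 18.5% of all genes: Irf1, Ddx58, Eif2ak2, Oasl1, Isg15, Dtx3l, Parp14, Bst2, Ifi35 and Lgals3bp, and the median difference was 0.53. Without WT sham 3, WT IR 1 or WT IR 3 no member was called higher (17.7% to 19.0% of all genes were). Without WT sham 2, cKO IR 1 or any 1 cKO sham library 1 member was (18.9% to 22.8% of all genes). Without cKO IR 3, Rsad2 was called lower, where 21.1% of all genes fell.

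The IR effect in cKO minus that in WT, tested as an interaction, was negative in all 36 members, with a median of -2.21 against 0.03 over all genes. It was called in 11: Stat2, Irf7, Irf1, Ddx58, Oasl1, Ifit1, Parp9, Dtx3l, Parp14, Bst2 and Xaf1, where 0.583% of all genes had a negative and 0.295% a positive interaction. A further 22 of the 36 had an unadjusted p under 0.05. Mx1 and Mx2, which reached the filter only through their cKO sham levels, were not called. Without WT sham 1 the interaction was called in 30 of 35 members, against 0.91% of all genes. It was called in 2 without WT sham 2, cKO sham 2, cKO sham 3 or cKO IR 1 (0.218% to 0.334% of all genes had a negative interaction). The count was 4 without WT sham 3, WT IR 1, cKO sham 1, cKO IR 2 or cKO IR 3 (0.373% to 0.567%), and 5 without WT IR 3 (0.590%). Irf1 and Dtx3l kept the call in each of the alternatives. The interaction is also the genotype difference after IR minus that in sham kidneys, so the higher cKO sham levels enter it.

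Between the injured kidneys no member was called: limma, with or without voom weights on recovered reads, called 0 of 36 in cKO IR against WT IR. It called 0% of all genes in either direction without these weights, and 1 gene, no member, lower with them. The log2 differences were negative in 35 of 36 members, with a median of -0.46 against 0.03 over all genes, and 2 members, Isg15 (-1.36) and Dtx3l (-0.67), had an unadjusted p under 0.05. In 6 members every cKO IR library was below every WT IR library (Irf7, Isg15, Dtx3l, Bst2, Ifi27l2a and Lgals3bp), against 5.84% of all genes, and Irf1 was the 1 member with a positive difference (0.11).

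**Figure D2:**
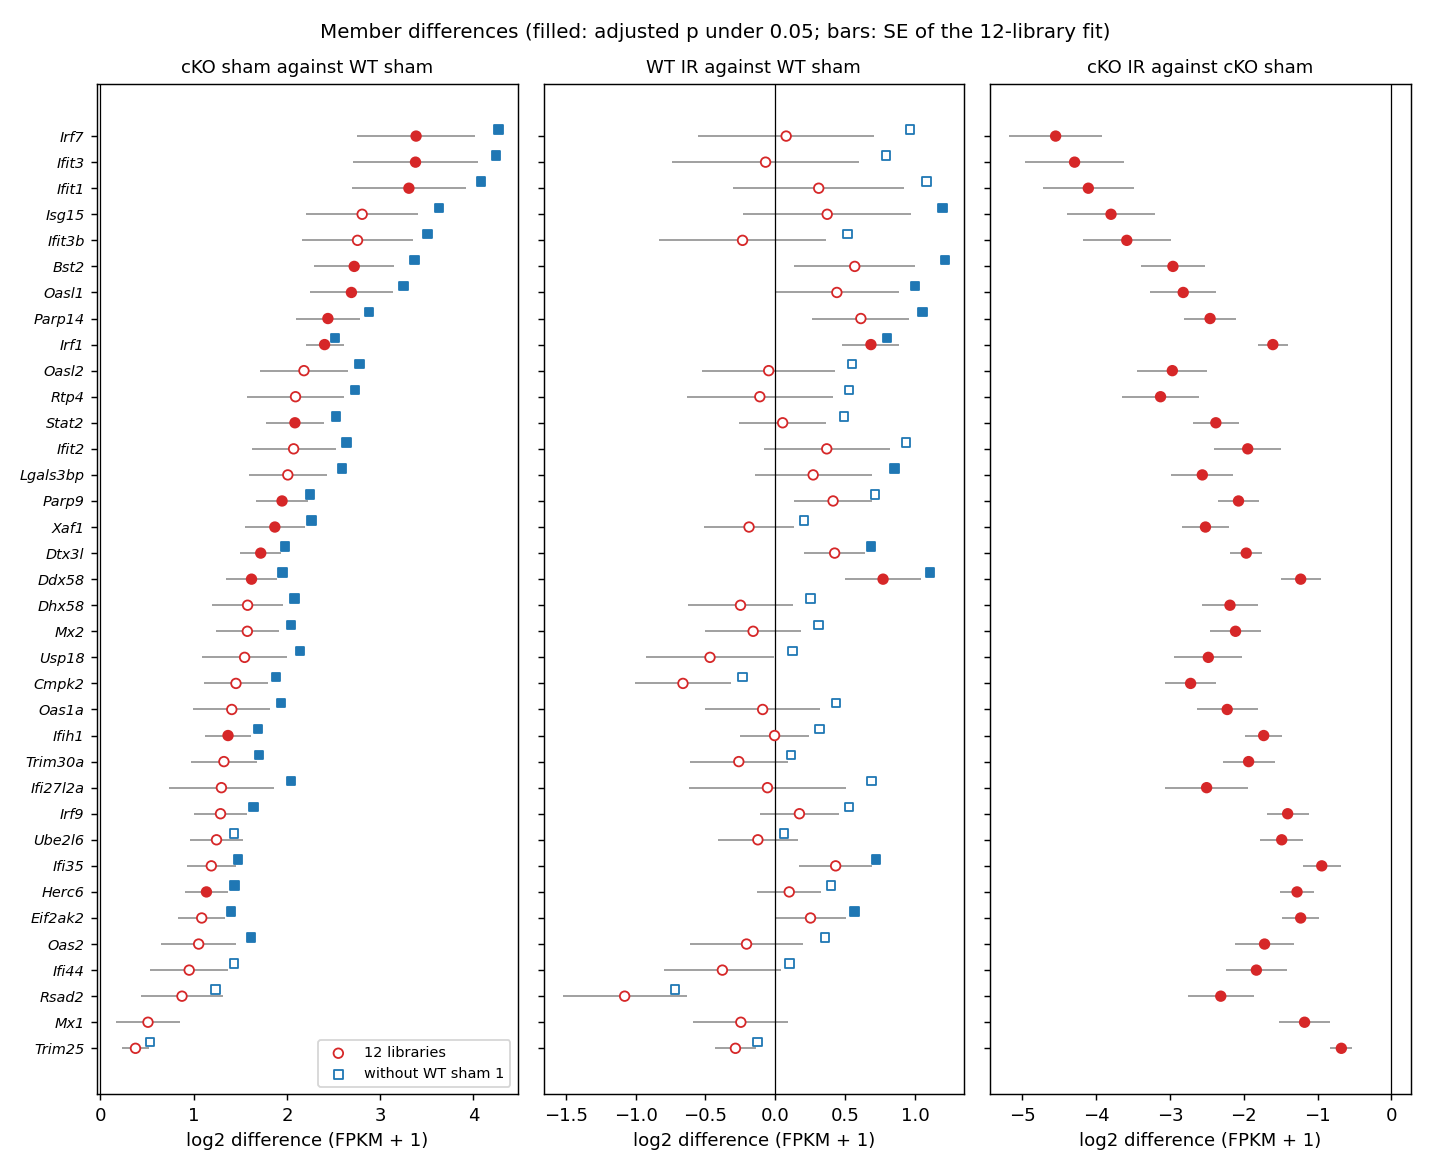
Log2 difference of each tested member in cKO sham against WT sham (left), WT IR against WT sham (middle) and cKO IR against cKO sham (right), ordered by the left panel. Circles come from all 12 libraries with SE bars, squares from the 11 without WT sham 1 (no square for Mx1, which was not tested there), and filled symbols are called. All circles lie right of 0 in the left panel and left of 0 in the right panel, and leaving out WT sham 1 moves the squares of the left and middle panels to the right.

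Of the 4 signal transducers and transcription factors 3 rose in cKO sham, and all 4 fell in cKO IR against cKO sham. Of all genes 0.847% rose and 23.1% fell in these comparisons. Without WT sham 1 all 4 rose in cKO sham, against 1.01% of all genes. Values are given for libraries 1, 2 and 3 of each group, in that order. Irf7, the factor that drives transcription of type I interferon genes and is itself interferon-induced, was at 71.8, 91.1 and 75.9 FPKM in cKO sham against 25.2, 3.85 and 2.56 in WT sham, and 1.69, 2.48 and 3.28 in cKO IR against 14.1, 4.9 and 4.97 in WT IR. Its 3 cKO sham libraries were far above all others, WT sham 1 was the highest of the remaining 9, and cKO IR lay below WT IR without overlap. Irf7 rose in cKO sham (3.39 ± 0.63, adjusted p = 0.0309; 4.27 ± 0.38, adjusted p = 0.000368 without WT sham 1) and fell in cKO IR against cKO sham (-4.55 ± 0.63, adjusted p = 0.000199), the largest difference of any member in both comparisons.

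Stat2, the STAT of the ISRE-binding complex, was at 23.8, 30.9 and 29.9 FPKM in cKO sham against 11.5, 4.39 and 3.72 in WT sham, and 4.49, 4.92 and 4.35 in cKO IR against 8.31, 4.78 and 5.62 in WT IR. The cKO sham libraries did not overlap any other, and the cKO IR libraries were below WT sham 1, WT IR 1 and WT IR 3. The rise in cKO sham was 2.09 ± 0.31, adjusted p = 0.00927. Irf9, the DNA-binding partner of that complex, was at 13.8, 13.7 and 14.2 FPKM in cKO sham against 8.95, 3.97 and 3.59 in WT sham, and 4.19, 4.48 and 5.24 in cKO IR against 7.63, 3.74 and 6.95 in WT IR. Its cKO sham libraries were again the 3 highest, but its difference in sham kidneys was not called with all libraries (1.29 ± 0.28, adjusted p = 0.0659) and was called without WT sham 1 (1.64 ± 0.21, adjusted p = 0.00379).

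Irf1, an interferon-induced transcription factor, was at 25.7, 28.9 and 21 FPKM in cKO sham against 4.75, 4.02 and 3.09 in WT sham, and 7.84, 9.25 and 5.85 in cKO IR against 8.42, 5.06 and 7.6 in WT IR. WT sham 1 was only 1.34 times the mean of WT sham 2 and 3 here, the smallest such ratio of the 37 genes, and cKO sham was 7.08 times that mean. Irf1 rose in cKO sham with the smallest p-value of all members (2.40 ± 0.20, adjusted p = 0.000313), a call that held in each of the 20 alternatives. It was also the transducer that rose with IR in WT, and its cKO IR libraries stayed above WT sham.

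The log2 differences of the 5 RNA sensors and regulators in sham kidneys ran from 0.38 (Trim25) to 1.62, and 2 of the 5 were called. Without WT sham 1, 4 of the 5 were called. Of all genes 0.847% rose with all libraries and 1.01% without WT sham 1. Ddx58, which encodes the cytosolic RNA sensor RIG-I, was at 17.6, 20 and 22.4 FPKM in cKO sham against 9.81, 4.7 and 4.1 in WT sham, and 8.39, 9.27 and 6.36 in cKO IR against 12.7, 7.73 and 12 in WT IR. All WT IR libraries were above WT sham 2 and 3, and WT sham 1 was between WT IR 2 and WT IR 3. Ifih1, which encodes the double-stranded RNA sensor MDA5, was at 10.5, 11.5 and 13.1 FPKM in cKO sham against 6.64, 2.84 and 3.0 in WT sham, and 2.9, 3.26 and 2.32 in cKO IR against 5.34, 3.09 and 3.49 in WT IR. Both rose in cKO sham, Ddx58 by 1.62 and Ifih1 by 1.37 on the log2 scale (adjusted p = 0.0161 and 0.027).

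Dhx58, which encodes their regulator LGP2, was at 5.45, 6.54 and 7.65 FPKM in cKO sham against 4.03, 0.910 and 0.645 in WT sham, and 0.421, 0.731 and 0.811 in cKO IR against 2.05, 0.539 and 1.01 in WT IR. It was the lowest sensor in level and its cKO sham mean was 8.42 times the mean of WT sham 2 and 3, the largest ratio of the class, yet it was not called with WT sham 1 in the fit (1.58 ± 0.38, adjusted p = 0.0935; 2.08 ± 0.26, adjusted p = 0.00271 without it). Eif2ak2, which encodes the translation-blocking kinase PKR, averaged 14.7 ± 2.25 FPKM in cKO sham, 6.74 ± 3.17 in WT sham, 5.66 ± 0.272 in cKO IR and 7.95 ± 2.15 in WT IR (SD, n = 3). Its sham difference was not called with all libraries (1.09 ± 0.25, adjusted p = 0.0864) and was called without WT sham 1 (1.40 ± 0.19, adjusted p = 0.00509). Trim25, a ubiquitin ligase that acts on RIG-I, changed least of all members, from 33.1 ± 3.65 FPKM in cKO sham to 20.3 ± 1.86 FPKM in cKO IR (SD, n = 3; -0.68 ± 0.15, adjusted p = 0.00318). Its level in WT sham, 25.5 ± 5.3 FPKM, overlapped that of cKO sham.

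The oligoadenylate synthetases make a short second messenger that activates RNase L, which cuts RNA. Oas1a was at 7.82, 9.6 and 11.9 FPKM in cKO sham against 7.31, 1.54 and 2.04 in WT sham, and 0.863, 1.06 and 2.06 in cKO IR against 3.87, 1.51 and 3.36 in WT IR. Oas2 was at 3.29, 4.11 and 4.99 FPKM in cKO sham against 4.33, 0.917 and 0.441 in WT sham, and 0.337, 0.682 and 0.640 in cKO IR against 1.76, 0.533 and 1.27 in WT IR. In Oas2, WT sham 1 was above cKO sham 1 and 2, and neither gene was called in sham kidneys with all libraries (Oas1a 1.41 ± 0.41, adjusted p = 0.175; Oas2 1.05 ± 0.40, adjusted p = 0.328). Without WT sham 1 both were called (Oas1a 1.94 ± 0.30, adjusted p = 0.0118; Oas2 1.61 ± 0.25, adjusted p = 0.0121).

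Oas3 was the 1 member under the expression filter and was at 0.757, 0.837 and 1.14 FPKM in cKO sham against 0.932, 0.0979 and 0.139 in WT sham, and 0.0531, 0.128 and 0.0366 in cKO IR against 0.341, 0.0767 and 0.457 in WT IR. Its reads numbered from 4 to 117 per library, and WT sham 1 lay between cKO sham 2 and cKO sham 3. With the minimum mean lowered to 0.1 FPKM it was called lower in cKO IR against cKO sham (-0.83, adjusted p = 0.00769).

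Oasl1, a family member without synthetase activity that in mice restrains translation of Irf7, was at 13.8, 19.3 and 28.4 FPKM in cKO sham against 5.93, 1.3 and 1.04 in WT sham, and 1.9, 2.06 and 1.81 in cKO IR against 4.74, 1.72 and 4.23 in WT IR. It was the 1 tested family member called in cKO sham (2.69 ± 0.44, adjusted p = 0.0155), and its cKO IR libraries were close together. Oasl2 was at 16.3, 20.5 and 20.9 FPKM in cKO sham against 9.14, 1.98 and 1.89 in WT sham, and 1.11, 1.57 and 2.14 in cKO IR against 5.35, 1.35 and 4.31 in WT IR. Its cKO sham mean was 19.3 ± 2.53 FPKM (SD, n = 3) and its difference in sham kidneys was not called with all libraries (2.18 ± 0.47, adjusted p = 0.0641) and was called without WT sham 1 (2.78 ± 0.35, adjusted p = 0.00334).

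The IFIT genes, which encode RNA-binding proteins that hold back translation of foreign RNA, had the largest median differences of the 7 classes in cKO sham against WT sham (3.03) and in cKO IR against cKO sham (-3.85). Ifit1 was at 38.7, 42.8 and 58.4 FPKM in cKO sham against 12.8, 1.85 and 1.7 in WT sham, and 0.990, 1.87 and 2.54 in cKO IR against 9.85, 1.91 and 5.42 in WT IR. Ifit3 was at 119.5, 141 and 178 FPKM in cKO sham against 45.2, 6.9 and 6.44 in WT sham, and 3.3, 6.44 and 11.7 in cKO IR against 23.5, 7.34 and 10.5 in WT IR. In both genes each cKO sham library exceeded WT sham 1 by more than 2 times, and the WT IR libraries were spread between the levels of WT sham 2 and WT sham 1.

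Ifit1 rose in cKO sham (3.31 ± 0.61, adjusted p = 0.0301) and fell in cKO IR (-4.11 ± 0.61, adjusted p = 0.000311), as did Ifit3 (3.38 ± 0.67, adjusted p = 0.0419, and -4.29 ± 0.67, adjusted p = 0.000424). Ifit2 was at 18.1, 26.7 and 27 FPKM in cKO sham against 11.8, 2.77 and 3.13 in WT sham, and 4.49, 6.19 and 5.56 in cKO IR against 11.3, 3.64 and 6.53 in WT IR. Ifit3b was at 26.8, 33.5 and 41.7 FPKM in cKO sham against 13.4, 1.63 and 2.49 in WT sham, and 0.595, 1.94 and 4.05 in cKO IR against 5.53, 2.07 and 3.06 in WT IR. In Ifit2 and Ifit3b cKO sham was likewise above WT sham without overlap, but not called with all libraries (adjusted p = 0.0642 and 0.0636). Both were called without WT sham 1 (adjusted p = 0.00334 and 0.00334), and both fell in cKO IR (-1.95 and -3.59). Ifit3 and Ifit3b are near-identical copies, and how reads shared by them were assigned is not given in the sources used here, so their separate levels are uncertain.

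The 4 promoters shown next were taken only from members that hold a match to the ISRE core, in order of the difference in sham kidneys. They carry 2 or 3 matches each. Each line is the 200 bases before the RefSeq gene start (GRCm38.p6), on the gene's strand and 5′ to 3′, with ISRE matches in capitals. The motif searched was GAAANNGAAA on both strands, where N is any base and overlapping matches are kept.
Ifit3: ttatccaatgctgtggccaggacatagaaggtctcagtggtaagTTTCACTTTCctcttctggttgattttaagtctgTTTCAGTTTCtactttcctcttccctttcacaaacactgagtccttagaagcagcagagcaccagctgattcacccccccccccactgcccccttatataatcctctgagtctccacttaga
Ifit3b: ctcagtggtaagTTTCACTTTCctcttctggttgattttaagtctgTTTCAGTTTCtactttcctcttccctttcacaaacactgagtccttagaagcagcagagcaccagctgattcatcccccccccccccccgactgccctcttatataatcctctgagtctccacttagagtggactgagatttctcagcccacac
Ifit1: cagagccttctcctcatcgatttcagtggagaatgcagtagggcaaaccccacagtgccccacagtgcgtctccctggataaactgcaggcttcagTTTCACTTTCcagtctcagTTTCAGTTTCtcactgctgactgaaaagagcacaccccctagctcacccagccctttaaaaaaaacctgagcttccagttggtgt
Isg15: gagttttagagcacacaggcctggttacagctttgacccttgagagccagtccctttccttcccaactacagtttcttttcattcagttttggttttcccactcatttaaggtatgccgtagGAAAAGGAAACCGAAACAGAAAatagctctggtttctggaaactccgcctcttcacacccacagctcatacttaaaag
The windows are at chr19:34583329-34583528 and chr19:34607757-34607956 and chr19:34640689-34640888 on the plus strand, and at chr4:156200819-156201018 on the minus strand. In Isg15 3 matches overlap in 1 run of 22 bases. The Ifit3 and Ifit3b windows align over 168 bases, of which 167 are identical, besides 6 gap bases.

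Over all members with a RefSeq promoter (28 of 37), 13 held an ISRE match between 250 bases before and 50 bases after the start of the gene, which is 46.4%, against 3.99% of all 27025 genes in that table. These 13 were Stat2, Ddx58, Ifih1, Eif2ak2, Oas1a, Oas3, Ifit1, Ifit3, Ifit3b, Isg15, Rsad2, Bst2 and Trim30a. Members without a match included Irf7, with the largest log2 difference in sham kidneys (3.39), Oasl1 (2.69) and Oasl2 (2.18). The GAS core, TTCNNNGAA, was found in 6 of the 28 (21.4%), against 9.55% of all genes. A match is a description of these letters and not a binding site. Members with no entry in the table were Dhx58, Ifi27l2a, Mx2, Rtp4, Parp14, Usp18, Mx1, Oas2 and Parp9.

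The ISG15 system attaches a small ubiquitin-like protein to other proteins. Isg15 itself was at 40.5, 43.5 and 66.4 FPKM in cKO sham against 21.4, 3.05 and 3.0 in WT sham, and 2.23, 2.11 and 3.59 in cKO IR against 15.1, 4.72 and 7.57 in WT IR. Its cKO sham libraries were the 3 highest, WT sham 1 the fourth, and cKO IR lay below WT IR without overlap. The fall in cKO IR was -3.80 ± 0.60, adjusted p = 0.000449, while the sham difference of 2.81 ± 0.60, adjusted p = 0.0603 was not called with WT sham 1 and was called without it (3.63 ± 0.38, adjusted p = 0.00101).

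Herc6, the ligase of ISG15 in mice, was at 3.33, 4.08 and 4.22 FPKM in cKO sham against 2.35, 0.864 and 0.731 in WT sham, and 0.909, 1.12 and 0.989 in cKO IR against 1.71, 0.890 and 1.6 in WT IR. It rose in cKO sham (1.14 ± 0.23, adjusted p = 0.0451), a call that held in 3 of the 20 alternatives. Usp18, which removes ISG15 and dampens the type I interferon receptor, was at 7.81, 10 and 14.5 FPKM in cKO sham against 7.91, 1.79 and 1.43 in WT sham, and 0.897, 0.834 and 1.49 in cKO IR against 3.2, 0.826 and 1.98 in WT IR. In Usp18 WT sham 1 was just above cKO sham 1, and its sham difference was not called with that library in the fit (1.55 ± 0.46, adjusted p = 0.181) and was called without it (2.14 ± 0.33, adjusted p = 0.0115). Ube2l6, the conjugating enzyme, averaged 14.4 ± 1.56 FPKM in cKO sham, 5.76 ± 2.18 in WT sham, 4.56 ± 1.05 in cKO IR and 5.19 ± 1.94 in WT IR (SD, n = 3), with WT sham 3 near WT sham 1, and was not called in sham kidneys (1.24 ± 0.29, adjusted p = 0.0841).

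**Figure D3:**
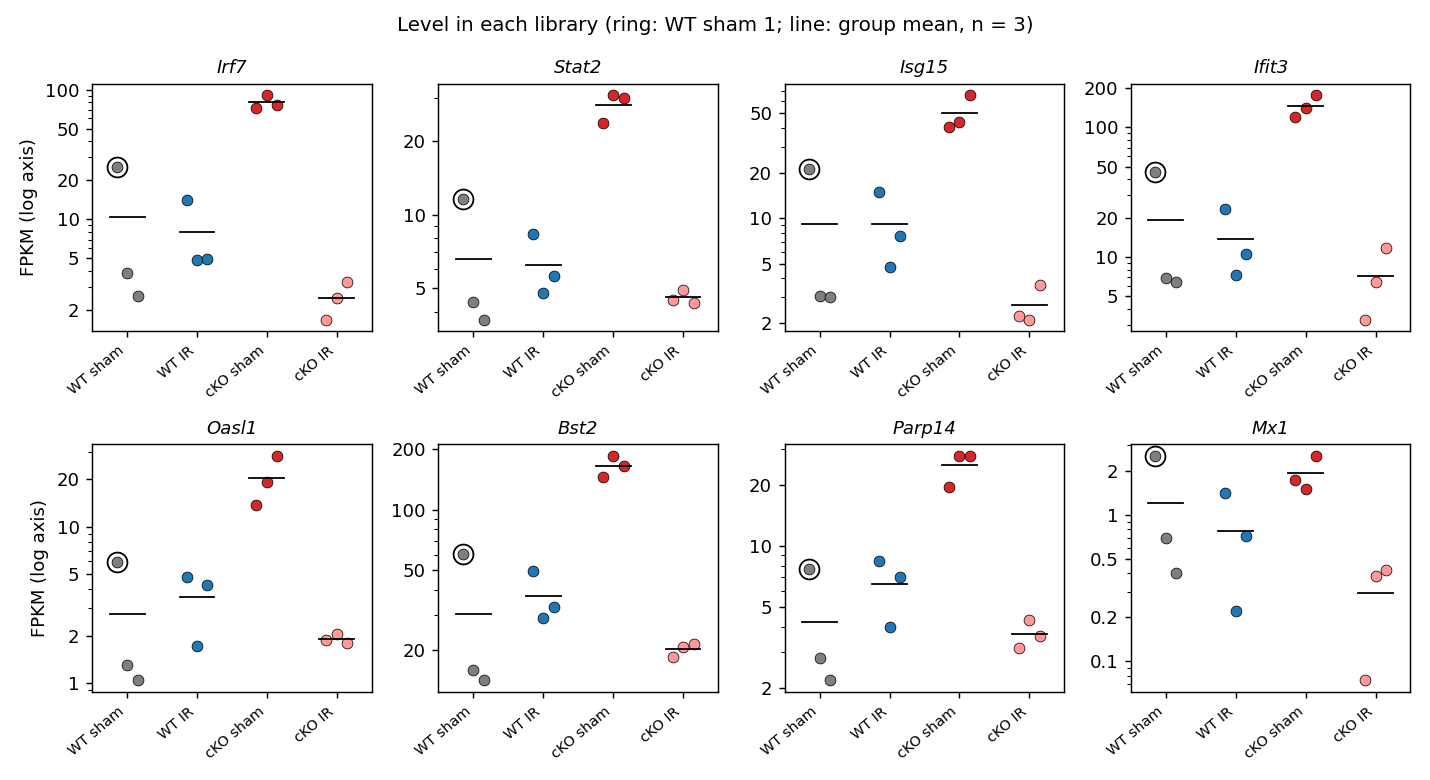
FPKM of 8 members in each library (points, on a logarithmic axis), by group, with the group mean as a line and WT sham 1 ringed. In 7 of the 8 genes every cKO sham point is above the ring, and in Mx1 the ring is level with the highest of them.

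Parp9, Dtx3l and Parp14 lie side by side in the genome and encode a pair of binding partners (an ADP-ribosylation protein and a ubiquitin ligase) and a related ADP-ribosyl transferase. All 3 rose in cKO sham and all 3 had a called interaction, with and without WT sham 1. Of all genes 0.847% rose and 0.583% had a negative interaction, or 1.01% and 0.91% without WT sham 1. With all libraries this was the only class of which every member was called in sham kidneys. Without WT sham 1 all 4 transducers, all 4 IFIT genes and all 4 tested genes of the oligoadenylate synthetase family were called as well. Parp14 was at 19.5, 27.7 and 27.5 FPKM in cKO sham against 7.71, 2.8 and 2.18 in WT sham, and 3.15, 4.31 and 3.6 in cKO IR against 8.4, 3.98 and 7.05 in WT IR. Its cKO sham libraries were all above 2 times any other library, and it rose by 2.44 (adjusted p = 0.00709). Dtx3l averaged 15.9 ± 3.21 FPKM in cKO sham, 4.26 ± 1.76 in WT sham, 3.29 ± 0.392 in cKO IR and 5.88 ± 1.1 in WT IR (SD, n = 3). Parp9 averaged 27.8 ± 4.28 FPKM in cKO sham, 6.75 ± 3.03 in WT sham, 5.89 ± 1.43 in cKO IR and 9.18 ± 3.33 in WT IR (SD, n = 3). Dtx3l and Parp14 kept their sham calls in each of the 20 alternatives, and Parp9 in 18.

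Among the other effectors Bst2, which encodes tetherin, a protein that holds budding virus at the membrane, was second only to Lgals3bp in mean FPKM over the libraries and was at 145, 186 and 165 FPKM in cKO sham against 60.5, 15.9 and 14.2 in WT sham, and 18.6, 20.8 and 21.7 in cKO IR against 49.8, 29.1 and 32.8 in WT IR. WT sham 1 was the highest library outside cKO sham, all WT IR libraries were above WT sham 2 and 3, and all cKO IR libraries below WT IR. Bst2 rose in cKO sham (2.72 ± 0.43, adjusted p = 0.0127) and, without WT sham 1, also in WT IR against WT sham (1.22 ± 0.20, adjusted p = 0.00227). Lgals3bp, a secreted glycoprotein and the most abundant member, was at 187, 202 and 160.0 FPKM in cKO sham against 101, 28.3 and 30.6 in WT sham, and 27, 25.7 and 39 in cKO IR against 79.1, 46 and 43.1 in WT IR. Its group order was that of Bst2, and its sham difference was just outside the threshold (2.01 ± 0.42, adjusted p = 0.0535) and inside it without WT sham 1 (2.59 ± 0.26, adjusted p = 0.000796).

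Xaf1, which encodes a proapoptotic protein, was at 9.92, 12.4 and 11.4 FPKM in cKO sham against 4.75, 1.51 and 1.56 in WT sham, and 1.03, 1.17 and 1.17 in cKO IR against 3.11, 0.911 and 2.18 in WT IR. It rose in cKO sham (1.87 ± 0.32, adjusted p = 0.0198), and its cKO IR libraries were below every WT sham library. Rtp4, which encodes a chaperone of receptor transport, was at 18.6, 25.7 and 25.7 FPKM in cKO sham against 12.6, 2.79 and 2.48 in WT sham, and 1.26, 1.79 and 2.31 in cKO IR against 6.95, 1.56 and 6.03 in WT IR. In sham kidneys Rtp4 was not called with all libraries (2.09 ± 0.52, adjusted p = 0.109) and was called without WT sham 1 (2.73 ± 0.41, adjusted p = 0.00986). Its cKO IR libraries were likewise below every WT sham library, as were those of Rsad2 and Cmpk2. Between cKO IR and WT sham both genotype and surgery differ, and this comparison was not fitted. The share of all genes with such an order was not computed.

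Rsad2, which encodes viperin, an enzyme that makes a chain-terminating nucleotide, was at 19.3, 19.1 and 22.1 FPKM in cKO sham against 18, 7.42 and 8.54 in WT sham, and 2.02, 2.46 and 6.36 in cKO IR against 6.28, 1.86 and 6.8 in WT IR. Cmpk2, its neighbour on chromosome 12 and a nucleotide kinase, was at 16.5, 17.6 and 19.4 FPKM in cKO sham against 11.4, 3.57 and 4.71 in WT sham, and 1.38, 1.86 and 2.41 in cKO IR against 4.83, 1.91 and 3.85 in WT IR. In both genes WT IR 2 was the lowest of the 6 WT libraries and WT sham 1 the highest. Rsad2 had the most negative member difference in WT IR against WT sham, which was not called (-1.08 ± 0.44, adjusted p = 0.0731), and in sham kidneys it was not called with or without WT sham 1. Cmpk2 was called in sham kidneys without WT sham 1 (1.88 ± 0.26, adjusted p = 0.00591) and not with it (1.45 ± 0.34, adjusted p = 0.0912).

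The Mx genes, which encode dynamin-like GTPases that block virus replication, were low. Mx1 was at 1.74, 1.51 and 2.54 FPKM in cKO sham against 2.55, 0.698 and 0.403 in WT sham, and 0.0743, 0.383 and 0.423 in cKO IR against 1.41, 0.221 and 0.719 in WT IR. Mx2 was at 3.75, 4.4 and 5.75 FPKM in cKO sham against 2.58, 0.307 and 0.397 in WT sham, and 0.104, 0.358 and 0.430 in cKO IR against 1.12, 0.357 and 0.634 in WT IR. The WT sham 1 level of Mx1 was above the cKO sham mean, the Mx1 sham difference was 0.51 ± 0.34, adjusted p = 0.676, and Mx2, not called with all libraries (1.58 ± 0.34, adjusted p = 0.0632), was called without WT sham 1 (2.04 ± 0.22, adjusted p = 0.00113).

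Trim30a, a tripartite motif protein, was at 8.13, 8.65 and 12.1 FPKM in cKO sham against 6.05, 2.04 and 2.44 in WT sham, and 1.6, 1.41 and 2.3 in cKO IR against 3.42, 1.12 and 3.57 in WT IR. Ifi44 was at 6.24, 5.34 and 8.23 FPKM in cKO sham against 6.57, 1.73 and 1.83 in WT sham, and 0.664, 1.08 and 1.73 in cKO IR against 2.3, 0.796 and 3.49 in WT IR. Ifi27l2a was at 19.3, 22 and 33.9 FPKM in cKO sham against 28, 5.08 and 5.21 in WT sham, and 1.76, 3.35 and 6.43 in cKO IR against 10.3, 6.44 and 10.6 in WT IR. In Ifi44 and Ifi27l2a WT sham 1 was inside the cKO sham range, and the 3 genes were not called in sham kidneys with all libraries (adjusted p = 0.132, 0.413 and 0.406). Without WT sham 1, Trim30a and Ifi27l2a were called (adjusted p = 0.0314 and 0.0332) and Ifi44 was not (0.126). Ifi35 averaged 15.7 ± 2.81 FPKM in cKO sham, 6.55 ± 2.82 in WT sham, 7.65 ± 1.3 in cKO IR and 9.0 ± 2.65 in WT IR (SD, n = 3), and its fall in cKO IR was the second smallest on the log2 scale (-0.94 ± 0.26, adjusted p = 0.0112). In sham kidneys Ifi35 was not called with all libraries (1.19 ± 0.26, adjusted p = 0.0649) and was called without WT sham 1 (1.48 ± 0.22, adjusted p = 0.0102).

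Several members are neighbours in the genome, in coordinates as deposited, whose build is not given in the sources used here. Ifit1, Ifit2, Ifit3 and Ifit3b lie within 99.3 kb of chromosome 19 (34528094 to 34627409). Oas1a, Oas2 and Oas3 lie on chromosome 5 from 120868398 to 121045584, and Oasl1 and Oasl2 from 115034997 to 115075974. Parp9, Dtx3l and Parp14 lie on chromosome 16 from 35653244 to 35792975. Mx1 and Mx2 lie on the same chromosome from 97248235 to 97362100, and Rsad2 and Cmpk2 on chromosome 12 from 26492745 to 26529836.

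WT sham 1 and cKO sham did not stand out in the same proportions. Relative to the mean of WT sham 2 and 3, WT sham 1 was between 1.34 times (Irf1) and 7.88 times (Oas3) as high over the 37 members, with a median of 3.69, and cKO sham was between 1.47 times (Trim25) and 26.3 times (Ifit1), with a median of 6.22. Set against WT sham 1 itself, the cKO sham mean was between 0.758 times (Mx1) and 5.30 times (Irf1), with a median of 1.82. In 7 members WT sham 1 was at or above the lowest cKO sham library: Trim25, Oas2, Oas3, Usp18, Mx1, Ifi44 and Ifi27l2a. WT sham 1 was above every WT IR library in 31 of the 37. The share of all genes was not computed for either count, so both are descriptions only.

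A second list, genes weighted toward interferon-gamma responses (guanylate-binding proteins, immunity-related GTPases, antigen-processing genes and Cxcl10), was set beside the members, with 21 of its 22 genes above 0 in each WT sham library. WT sham 1 was a median of 2.37 times the mean of WT sham 2 and 3 in this list, and cKO sham a median of 9.28 times. The cKO sham mean was between 0.990 times (Cxcl9) and 23.9 times (Tgtp1, followed by Iigp1 at 12.5 times) WT sham 1, with a median of 4.41. Tgtp1, an immunity-related GTPase, was at 83.2, 116 and 73.7 FPKM in cKO sham against 3.81, 1.45 and 0.894 in WT sham, and 0.449, 1.57 and 0.707 in cKO IR against 4.57, 2.03 and 1.87 in WT IR. In Tgtp1, whose reads may be shared with its close copy Tgtp2, WT sham 1 was within the WT IR range and far below cKO sham, whereas in Usp18 or Mx1 it reached cKO sham. These genes are extremes of lists that overlapped. WT sham 1 also reached cKO sham in Cxcl9, and the cKO sham mean of the antiviral member Irf1 was 5.30 times WT sham 1. Both lists were chosen with results of these libraries known, so this contrast is a description and was not tested.

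**Figure D4:**
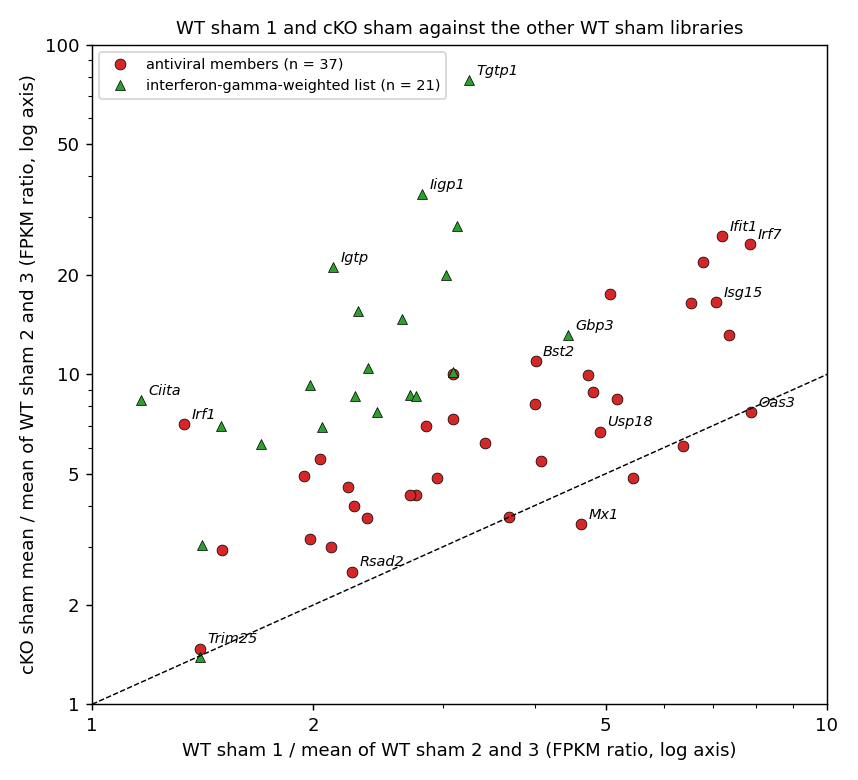
For each antiviral member (circles) and each gene of the interferon-gamma-weighted list (triangles), the WT sham 1 level (horizontal) and the cKO sham mean (vertical), both divided by the mean of WT sham 2 and 3, on logarithmic axes with a dashed line of equality. Antiviral members lie nearer the line, with median ratios of 3.69 and 6.22, than the interferon-gamma-weighted genes, at 2.37 and 9.28.

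The other genes of the pathway were read by lists. No interferon ligand gene was abundant enough to test: of 21 ligand genes 16 had 0 reads in every library, and the other 5 were Ifnk with 14 reads over all libraries, Ifnl3 with 3, Ifng and Ifnz with 2 each and Ifnb1 with 1. In each library, 3 reads correspond to 0.176 to 0.226 FPKM for a gene model of 1 kb, so lower ligand levels were not detectable at this depth. Of 10 tested receptor, kinase and STAT genes 1 rose in cKO sham against WT sham, Stat3 (0.69 ± 0.11, adjusted p = 0.0107), which transmits interleukin-6 family signals, and 0 fell. There 0.847% of all genes rose and 0.256% fell. In cKO IR against cKO sham 6 of the 10 rose and 0 fell, where 27.8% of all genes rose and 23.1% fell. In WT IR against WT sham 5 of the 10 rose, Ifnar1, Ifngr1, Ifngr2, Jak1 and Stat3, and 0 fell, where 22.6% of all genes rose and 19.5% fell.

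Among 7 tested negative regulators and related genes 0 were called in cKO sham against WT sham, where 1 (Ptpn1) had an unadjusted p under 0.05. In WT IR 4 rose and 2 fell, and in cKO IR 3 rose and 2 fell, in comparisons where 19.5% (WT) and 23.1% (cKO) of all genes fell and 22.6% and 27.8% rose. Socs3, the feedback inhibitor of JAK-STAT signalling, rose in both (2.50 and 2.84). Among 13 tested genes of nucleic acid sensing 3 rose in cKO sham: Samhd1, which degrades nucleotides (0.99 ± 0.18, adjusted p = 0.0259), Tbk1, the kinase that activates interferon regulatory factors (0.31 ± 0.06, adjusted p = 0.0412), and Adar, which edits double-stranded RNA (0.90 ± 0.18, adjusted p = 0.0422). In cKO IR against cKO sham 5 of the 13 rose and 8 fell, and in WT IR against WT sham 3 rose and 1 fell. Of the 20 tested interferon-gamma-weighted genes all 20 rose in cKO sham, with a median difference of 2.48, and all 20 fell in cKO IR against cKO sham, with a median of -2.90. Those with the smallest p in cKO sham were Tgtp1 (5.01 ± 0.37, adjusted p = 0.000208), Igtp (3.92 ± 0.31, adjusted p = 0.00022) and Irgm2 (3.44 ± 0.28, adjusted p = 0.000237), all immunity-related GTPases. In WT IR 1 of the 20, Cxcl10, rose (1.67 ± 0.43, adjusted p = 0.0103), and 18 had a called negative interaction. Of all genes 0.847% rose in cKO sham against WT sham and 0.583% had a called negative interaction. How many of the 20 passed the filter only through their cKO sham levels was not counted.

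Leaving out WT sham 1 changed these lists as follows. In that fit 1.01% of all genes rose in cKO sham, 18.5% rose and 16.2% fell in WT IR, and 0.91% had a negative interaction. The interferon-gamma-weighted list again had all 20 genes higher in cKO sham, with a median difference of 2.80, all 20 had a called negative interaction, and 6 rose in WT IR: Irgm1, Gbp2, Gbp3, Gbp7, Cxcl10 and Psmb8. Stat3 kept its rise in cKO sham (0.70, adjusted p = 0.0284), and again 5 of the 10 receptor, kinase and STAT genes rose in WT IR. Among 12 tested genes of nucleic acid sensing Samhd1 and Adar kept the call in cKO sham, Tbk1 lost it (0.31, adjusted p = 0.113), and Zbp1, a sensor of Z-form nucleic acids, gained it (2.18, adjusted p = 0.00377). Of the negative regulators 0 were called in cKO sham, and in WT IR 4 rose and 0 fell.

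Markers of blood cells and of other cells that can carry an interferon response were read beside these differences. The 10 macrophage and monocyte markers summed to 52.1 to 78.8 FPKM in cKO sham against 50.2 to 71.4 in WT sham, ranges that overlapped. Neutrophil markers (6 genes) summed to 1.81 to 2.45 FPKM in WT sham, 2.65 to 3.14 in cKO sham, 10.5 to 50.4 in WT IR and 17.8 to 25.9 in cKO IR. For the 11 T and NK cell markers the sums were 2.91 to 5.05 FPKM in cKO sham against 4.60 to 6.92 in WT sham, and 0.877 to 2.38 in cKO IR, below cKO sham without overlap, against 1.90 to 4.85 in WT IR. The 6 B and plasma cell markers had lower sums in cKO sham than in WT sham, from 16.8 to 28.2 FPKM in WT sham to 1.15 to 3.12 FPKM in cKO sham, in the direction opposite to the antiviral genes. A single gene of the 6 reached 24.6 FPKM in a WT sham library and was the only 1 that passed the filter. That gene was called lower in cKO sham (-3.38) and WT IR (-1.64) against WT sham, and higher in cKO IR against cKO sham (1.65). Dendritic cell markers (6 genes) summed to 2.31 to 3.03 FPKM in cKO sham against 1.88 to 2.83 in WT sham, and to 0.840 to 2.31 FPKM in cKO IR, below cKO sham by a narrow margin. Of these blood cell markers 0 were at 0 in all 3 libraries of WT sham or of cKO sham. The 4 stroma markers summed to 35.9 to 51.2 FPKM in cKO sham against 25.7 to 30.9 in WT sham without overlap, in the same direction as the antiviral genes; 0 of the 4 were called and their median difference was 0.68. The 5 endothelium markers summed to 52.9 to 58.9 FPKM in cKO sham against 46.3 to 56.6 in WT sham, ranges that overlapped. Reads of mitochondrial genes made up 9.82% to 10.4% of WT sham libraries and 8.11% to 8.47% of cKO sham libraries. The part of these markers in the differences was not tested.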

How the data were processed

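Kidney RNA of 12 libraries in 4 groups was analysed from 1 table of FPKM values that the authors deposited, with 56748 genes. Per the submitters' processing notes HISAT2 2.2.1 was used and the builds mm8 and mm9 are named; neither the counting program nor the build behind the deposited coordinates is given in the sources used here. Whole reads were recovered from the steps of FPKM times model length (13187531 to 15962303 per library). Groups were taken from the labels. Log2(FPKM + 1) of the 12868 genes averaging 1 FPKM or more was fitted with limma 3.58.1 (R 4.3.3), with 1 mean per group, a trended prior, 8 residual and 2.59 prior degrees of freedom, and two-sided Benjamini-Hochberg adjusted p over all tested genes; under 0.05 was called. The method was tested on simulated data with no outlying library. That test does not cover spread such as that of WT sham 1 and WT IR 2. Differences are on the log2(FPKM + 1) scale with SE, which understates changes of low genes; levels are mean ± SD, n = 3. An exact permutation test of 3 against 3 cannot go below p = 0.1 and was not used. Every member is named, with values in each library for the transducers, Isg15, the 4 largest differences and members more than 2 times higher in WT sham 1. The members and lists were chosen with earlier results of these data known, and 1 pathway gene is not reported here. Old symbols were matched through RefSeq, as were promoters (GRCm38.p6). Alternatives were another pseudocount, filter and scaling, voom weights on recovered reads, a replicate block, separate groups and leaving out each library.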

Additional observations from a re-analysis of the deposited data

Results flagged for a closer look

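For 11 members the effect of IR differed between the genotypes by the interaction test itself (limma, Benjamini-Hochberg adjusted p under 0.05, n = 3 libraries per group), with 0.583% of all tested genes called in that direction. The IR effect in cKO minus that in WT, on the log2 scale, was -2.43 for Stat2, -4.63 for Irf7, -2.29 for Irf1, -2.0 for Ddx58, -3.26 for Oasl1, -4.42 for Ifit1, -2.49 for Parp9, -2.39 for Dtx3l, -3.07 for Parp14, -3.53 for Bst2 and -2.33 for Xaf1. Adjusted p-values ran from 0.00542 (Irf1) to 0.0453 (Xaf1). In each of the 11 the cKO IR libraries were all below the cKO sham libraries. The same value is the genotype difference after IR minus that in sham kidneys. Each of the 11 was called higher in cKO sham against WT sham, by 1.62 (Ddx58) to 3.39 (Irf7). None was called in cKO IR against WT IR, where differences ran from -1.24 (Irf7) to 0.11 (Irf1). The interaction alone cannot tell a different response to IR from a different level in sham kidneys. Irf1 and Dtx3l kept the call in all 19 alternatives that could be run, Parp9 and Parp14 in 15, Bst2 in 9, Stat2 in 6, Ddx58 in 5, Irf7, Oasl1 and Ifit1 in 4 and Xaf1 in 3.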

How the results depend on the processing

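No member difference changed direction where it was called, and 0 members were called in cKO IR against WT IR under any alternative. Shares of all tested genes called in the same direction are in brackets. The count of members that rose in cKO sham against WT sham was 14 (0.847%), and was 9 with no filter (0.322%), 8 with a pseudocount and minimum of 0.1 FPKM (0.439%), 23 with voom weights on recovered reads (1.01%) and 7 with these groups alone (1.06%). The count that rose in WT IR against WT sham was 2 (22.6%). It was 1 with no filter, a minimum of 0.1 FPKM, pseudocount and minimum of 0.1 FPKM or these groups alone (8.89% to 19.0%). The count of called negative interactions was 11 (0.583%), and 4 with no filter (0.180%), 6 with a minimum of 0.1 FPKM (0.351%), 5 with pseudocount and minimum of 0.1 FPKM (0.288%) and 5 with a replicate block (0.396%). With voom weights the median difference was -2.74 in cKO IR against cKO sham and -2.85 for the interaction, and the median of all genes moved to 0.16 in WT IR against WT sham. Leaving out each library in turn gave 0 to 10 rises (17.7% to 24.2%) and 0 to 1 falls (14.9% to 22.6%) in WT IR against WT sham, with a median of -0.29 to 0.53. It gave 3 to 31 rises in cKO sham against WT sham (0.319% to 1.12%) and 2 to 30 called negative interactions (0.218% to 0.910%). The cause of these moves was not tested. The interaction could not be fitted from its groups alone. With the replicate block 12 members rose in cKO sham (0.699%), 36 fell in cKO IR against cKO sham (22.5%) and 2 rose in WT IR (21.7%). The deviations of 18 same-numbered pairs of libraries had correlations from -0.19 to 0.40, 4 of them over 0.1, and 11 of 36 best matches were with the own number, so the numbers were not taken to pair libraries. With 4 reads as the lowest member value in a library, Oas3 and the Mx genes are limited by depth.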
